A study of Melospiza melodia with 33 samples.

Results

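The genes described here are 8 T cell genes measured in the blood of wild song sparrows (Melospiza melodia): CD4, CD8A, CD8B, CD247, CD5, BCL11B, TCF7 and TBX21. They were chosen by name, and all 8 were found among the 21141 gene rows of each of the 33 libraries. They are taken in 4 sets: the CD4 co-receptor, the CD8 co-receptor (CD8A and CD8B), the genes shared by T cells of both kinds (CD247, CD5, BCL11B and TCF7), and the effector regulator TBX21.

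Blood came from 25 free-living adult males at Linesville, Pennsylvania, some of which had been played a stranger's song on their territory. The song was either local (stimuli 2, 3 and 6, recorded at Linesville) or foreign (stimuli 1, 4 and 5, recorded at Millbrook, New York), and trials were first or second. There were 12 libraries after foreign song (8 first and 4 second trials), 11 after local song (7 first and 4 second trials) and 10 from baseline birds, which were caught without any trial. In 8 birds a library was made after each song, with local song first in 4 of them. The order went with the recording in part, since stimulus 3 always came before 4 and stimulus 5 before 6 in these birds. The labels name no other treatment, and they do not state the time from playback to bleeding. Birds of a group shared recordings, so song origin was sampled by few stimuli.

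T cells recognise antigen with a receptor that cannot signal by itself. The zeta chain encoded by CD247 passes the signal into the cell, and a co-receptor, CD4 on helper cells or the paired alpha and beta chains of CD8 on cytotoxic cells, binds the presenting molecule and brings the kinase LCK to it. CD5 is a surface protein that dampens this signal. BCL11B and TCF7 encode transcription factors that set and keep T cell identity in mice. TBX21 encodes T-bet, which in mice and humans directs interferon-producing helper cells and cytotoxic effector cells. Some of these genes are also used outside T cells: in humans, natural killer cells express CD247 and TBX21 and often CD8A, and monocytes carry CD4. Bird red cells and thrombocytes are nucleated and make up most blood cells, and T cells are a minority. In such bulk samples, fewer T cells and less RNA per cell cannot be told apart.

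All 8 genes were detected in all 33 libraries. Among genes that define T cells, LCK had a median of 3.00 CPM (counts per M of scaled library size) and a range of 0.883 to 16.4. CD3D, CD3E, CD3G, ZAP70 and LAT have no row under those symbols and were not analysed here. Depth was 64.7 to 103.7 M counts per library. The lowest count of a member was 3, for CD8B in the local song library of bird 8437 (exact 95% Poisson interval 0.619 to 8.77 counts, counting error only). CPM is not divided by transcript length, so levels are compared between birds and groups and never between genes.

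A total of 3 libraries stood apart in these genes, and values without them stand beside the results that they moved most. The baseline library of bird 8448 was the highest of all 33 in CD4, CD8A, CD8B, CD247, CD5 and TBX21. Its CD8A level was 19.2 CPM (2295 counts), 37.4 times the median of the 33 libraries, and its CD8B level was 19.3 CPM. It was also the highest library in 36 of the 57 genes that passed the filter in 5 wider T cell lists. Its summed marker levels were the highest of 33 for heterophils (80.8 CPM against a median of 22.8) and for B cells (94.5 against 40.7), while its erythroid sum ranked 31 of 33 (9662 against 15220 CPM).

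The other two libraries that stood apart had high BCL11B and the lowest CD8A. The local song library labelled 8439 held 26.3 CPM of BCL11B and the baseline library of 8450 held 11.8 CPM, ranks 1 and 2 of 33. Their CD8A levels were 0.0639 and 0.0634 CPM, from 9 counts (exact 95% Poisson interval 4.12 to 17.1) and 7 counts (2.81 to 14.4), and ranked 32 and 33. CD8B was within the usual range in both, at 1.10 CPM (155 counts) and 0.634 CPM (70 counts). The 2 libraries also ranked 2 and 1 for GATA3, a T lineage transcription factor, at 82.0 and 138.8 CPM against a median of 46.2 over the other libraries. Both were low in IL7R, a survival receptor of resting T cells (5.98 and 3.52 CPM against a median of 12.7), and in IL2RB, a cytokine receptor chain of effector T cells (0.703 and 0.226 CPM against 1.53). Their erythroid sums were the lowest of 33, at 8560 and 9078 CPM, and their B cell sums ranked 4 and 3 (72.7 CPM in both). The 2 libraries lay apart in other sums, with ranks of 6 and 31 for monocytes, 8 and 29 for heterophils and 3 and 30 for thrombocytes. GATA3, IL7R and IL2RB were singled out here after their values were seen. RUNX1, a transcription factor in the wider T cell lists that is not particular to T cells, ranked 1 and 2 in the 2 libraries (175.4 and 88.1 CPM against a median of 12.5). Other genes of the wider T cell lists set the 2 libraries apart. Their ranks were 3 and 33 for LCP2, 13 and 33 for RASGRP1, 4 and 23 for THEMIS and 33 and 3 for CXCR5. In deviations from group means, the 2 libraries labelled 8439 did not resemble each other across genes (r = −0.05). Those of the other 7 paired birds did (r from 0.325 to 0.629). The highest r of 8439 with another bird was 0.0743. Because the levels of its local song library were extreme, this low value cannot show whether a label was exchanged. The labels of 8439 are treated as uncertain, but a wrong label was not tested apart from the extreme levels of its local song library.

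**Figure D1:**
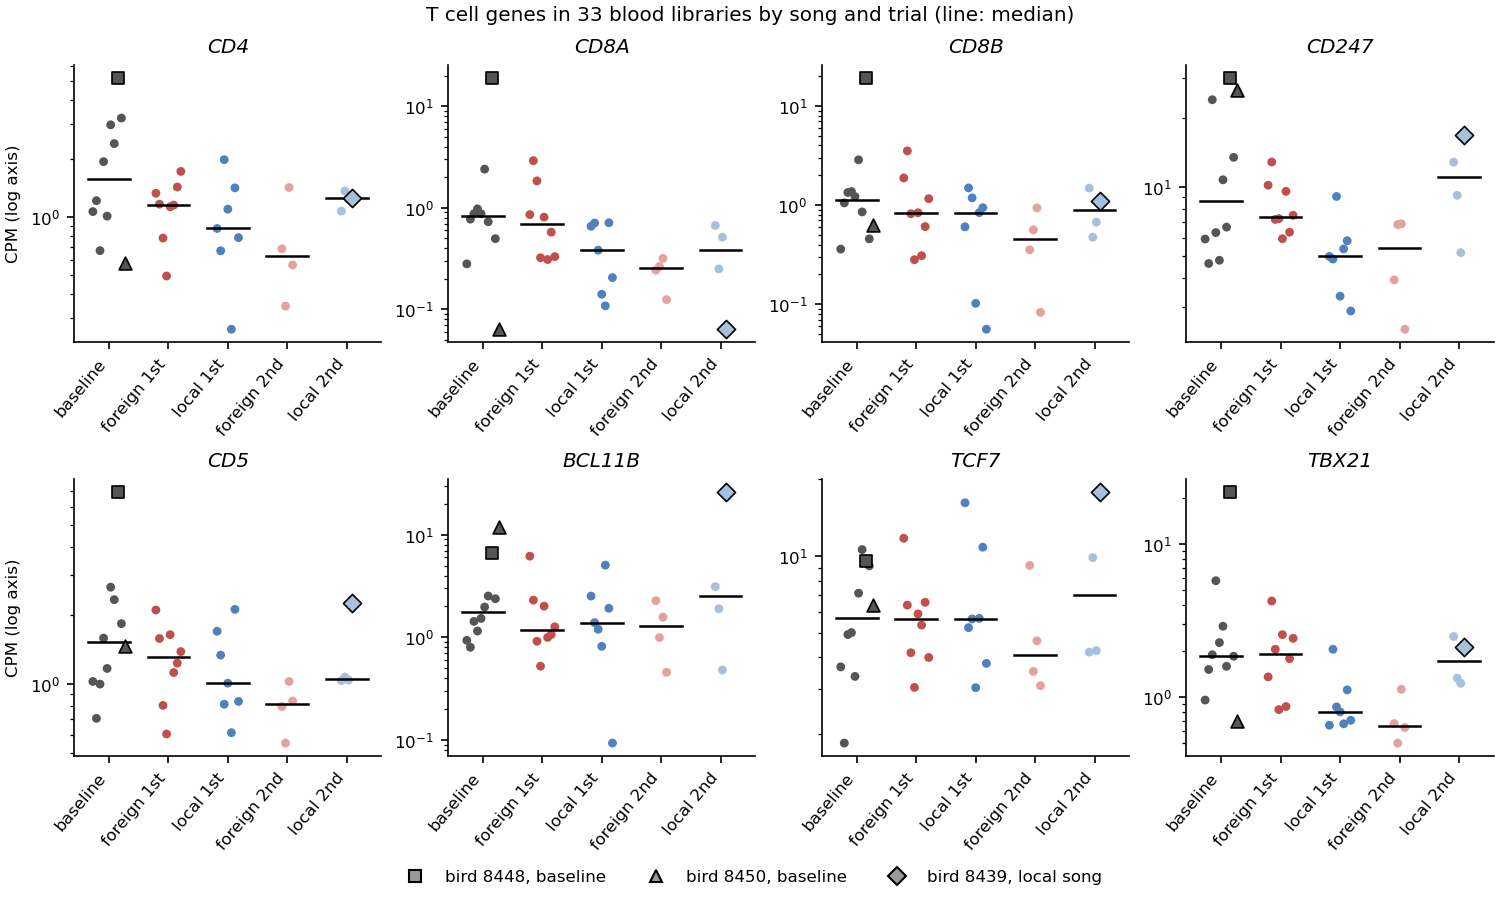
Level of each T cell gene in every library (CPM, log axis), by song and trial, with the median of each set as a line. The square (8448), triangle (8450) and diamond (8439, local song) mark the libraries that stood apart, with CD8A from 0.0634 CPM in 8450 to 19.2 CPM in 8448.

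**Figure D2:**
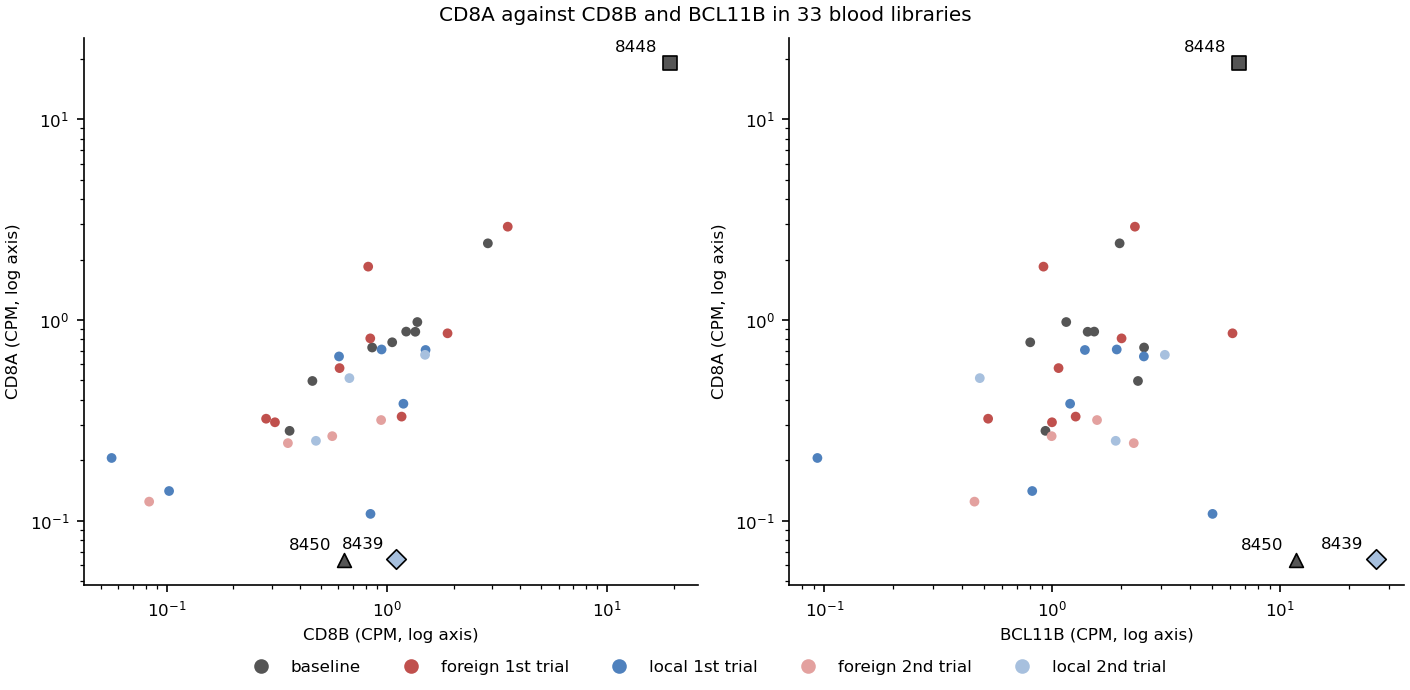
CD8A (CPM, log axis) against CD8B (left) and against BCL11B (right), 1 point per library, coloured by song and trial. The libraries of 8450 and 8439 have the lowest CD8A beside ordinary CD8B and the highest BCL11B, and the library of 8448 is highest in both CD8 chains.

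CD4, the co-receptor of helper T cells, had a baseline median of 1.57 CPM (range 0.580 to 5.22, n = 10). First-trial medians were 1.16 CPM after foreign song (0.496 to 1.72, n = 8) and 0.872 after local song (0.264 to 1.97, n = 7). The 4 second-trial libraries after foreign song held 0.685, 0.347, 1.42 and 0.566 CPM, and the 4 after local song 1.07, 1.36, 1.23 and 1.26. Baseline was the highest of the 5 sets by median and second-trial foreign song the lowest, and each set overlapped every other set in range.

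CD8A, the alpha chain of CD8, had a baseline median of 0.823 CPM, with a range of 0.0634 to 19.2 that reached 2.41 without 8448. The first-trial medians were 0.692 CPM after foreign song (0.309 to 2.92) and 0.382 after local song (0.108 to 0.712). Second-trial libraries held 0.243, 0.263, 0.317 and 0.124 CPM after foreign song and 0.670, 0.250, 0.513 and 0.0639 after local song. The 4 second-trial foreign libraries therefore lay in the low part of the range that first-trial local libraries covered.

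CD8B, the beta chain, had a baseline median of 1.14 CPM (0.360 to 19.3; up to 2.87 without 8448). Its first-trial medians were nearly equal, 0.828 CPM after foreign song (0.282 to 3.53) and 0.839 after local song (0.0559 to 1.49). Second-trial values were 0.354, 0.562, 0.938 and 0.0828 CPM after foreign song and 1.49, 0.474, 0.673 and 1.10 after local song. All 5 sets overlapped.

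Among the shared genes, CD247, the signalling zeta chain, had a baseline median of 8.70 CPM (4.63 to 30.0), and 3 baseline birds, 8448, 8450 and 8442, held 30.0, 26.5 and 24.03 CPM. First-trial medians were 7.39 CPM after foreign song (5.94 to 12.8) and 4.96 after local song (2.87 to 9.08). Second-trial values were 3.92, 6.85, 6.89 and 2.39 CPM after foreign song and 12.8, 9.19, 5.16 and 16.9 after local song. CD5, the dampening receptor, had medians of 1.53 CPM at baseline (0.707 to 6.99), 1.31 in foreign and 1.01 in local first trials. In second trials CD5 was between 0.550 and 1.03 CPM after foreign song and between 1.04 and 2.27 after local song, in different birds. Without 8439 the latter range was 1.04 to 1.07 CPM. The share of all genes with such separate ranges was not counted.

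BCL11B, a commitment factor of the T lineage in mice, was spread more widely. Its baseline median was 1.75 CPM (0.800 to 11.8), and the first-trial medians were 1.17 after foreign song (0.523 to 6.18) and 1.39 after local song (0.0932 to 5.05). Second-trial libraries held 2.28, 0.993, 1.57 and 0.456 CPM after foreign song and 3.12, 1.90, 0.481 and 26.3 after local song, the last from 8439. TCF7, a factor of naive and memory T cells in mice, had closely placed medians, 5.72 CPM at baseline (1.84 to 10.6), 5.63 in foreign first trials (3.04 to 11.7) and 5.65 in local first trials (3.04 to 16.2). No order among these 3 sets can be read from such medians. The second-trial medians were 4.08 CPM after foreign and 7.05 after local song.

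TBX21, the effector regulator, had medians of 1.88 CPM at baseline (0.697 to 22.1; up to 5.78 without 8448), 1.93 in foreign first trials (0.831 to 4.26) and 0.804 in local first trials (0.657 to 2.06). Second-trial values were 0.674, 0.503, 1.13 and 0.635 CPM after foreign song and 2.50, 1.34, 1.23 and 2.14 after local song. The second-trial sets hold 4 different birds each, so song and bird are mixed in that contrast.

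The spread between birds differed among the members. With 1 library per bird, the SD of log2 CPM over 25 birds was 1.62 for CD8A, 1.58 for CD8B, 1.34 for BCL11B and 1.15 for TBX21. The median SD of 12363 genes was 0.62, and 95% of genes had a smaller SD than CD8A (86.2% without 8448). These genes were not matched to CD8A in level, and the 25 birds mixed baseline, foreign song and local song. CD4 (0.92), CD247 (0.86), CD5 (0.77) and TCF7 (0.72) were closer to the typical gene. Without 8448 the SDs of CD8A, CD8B and TBX21 were 1.28, 1.31 and 0.87, while that of BCL11B was 1.30.

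The first comparison set foreign against local song in the 8 birds played both, to ask whether the origin of the song went with a difference in these genes when each bird is its own control. CD8B was lower after foreign song in 7 of 8 birds, with a fitted log2 fold change of −0.63 ± 0.28 (SE). The values after local and then foreign song were 0.604 and 0.354 CPM in 8422, 1.49 and 0.562 in 8426, 1.18 and 0.938 CPM in 8427, 1.49 and 0.819 in 8428, 0.474 and 0.282 in 8429, 0.102 and 0.0828 in 8430, 0.673 and 0.607 in 8436, and 1.10 and 1.16 in 8439. The bird with the higher value after foreign song was 8439. CD8A showed no such direction: it was higher after foreign song in 4 birds and lower in 4, with a fitted change of 0.05 ± 0.37.

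The helper co-receptor CD4 was lower after foreign song in 6 of 8 birds (−0.53 ± 0.26), in 4 of 4 that heard local song first and 2 of 4 that heard foreign song first. The 4 shared genes were each lower in 6 of 8 birds, with fitted log2 fold changes of −0.40 ± 0.20 for CD247, −0.55 ± 0.26 for CD5, −0.66 ± 0.29 for TCF7 and −1.07 ± 0.47 for BCL11B. In 8439 the local song library held 26.3 CPM of BCL11B and the foreign song library 1.27, and without that bird the fitted change of BCL11B was −0.62 ± 0.34 and that of TCF7 −0.42 ± 0.23. TBX21 was lower in 4 of 8 birds (−0.31 ± 0.29), and its fitted change without 8426 was −0.0711.

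None of these values passed the threshold, an adjusted p under 0.05 by edgeR's quasi-likelihood test with Benjamini-Hochberg adjustment over all genes. The adjusted p was 0.775 for 6 members, 0.791 for TBX21 and 0.977 for CD8A, and 0 of 8 members were called, where 0% of 11629 genes were. At an unadjusted p under 0.05, 3 of 8 members were counted (CD8B, BCL11B and TCF7, all lower after foreign song), beside 4.18% of all genes (486, of which 392 were lower). Without 8439 the count was 2 of 8 (CD4 and CD8B, 4.24% of all genes). DESeq2 called 4 genes and no member. Over all 23 song libraries with the bird as a random block (limma-voom), CD8B was at −0.16, CD4 at −0.27, CD247 at −0.14, CD5 at −0.30, BCL11B at −0.68, TBX21 at −0.0111 and CD8A at 0.58, so most of these differences were smaller there, and none was called. With no replicate block BCL11B was at −1.73.

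**Figure D3:**
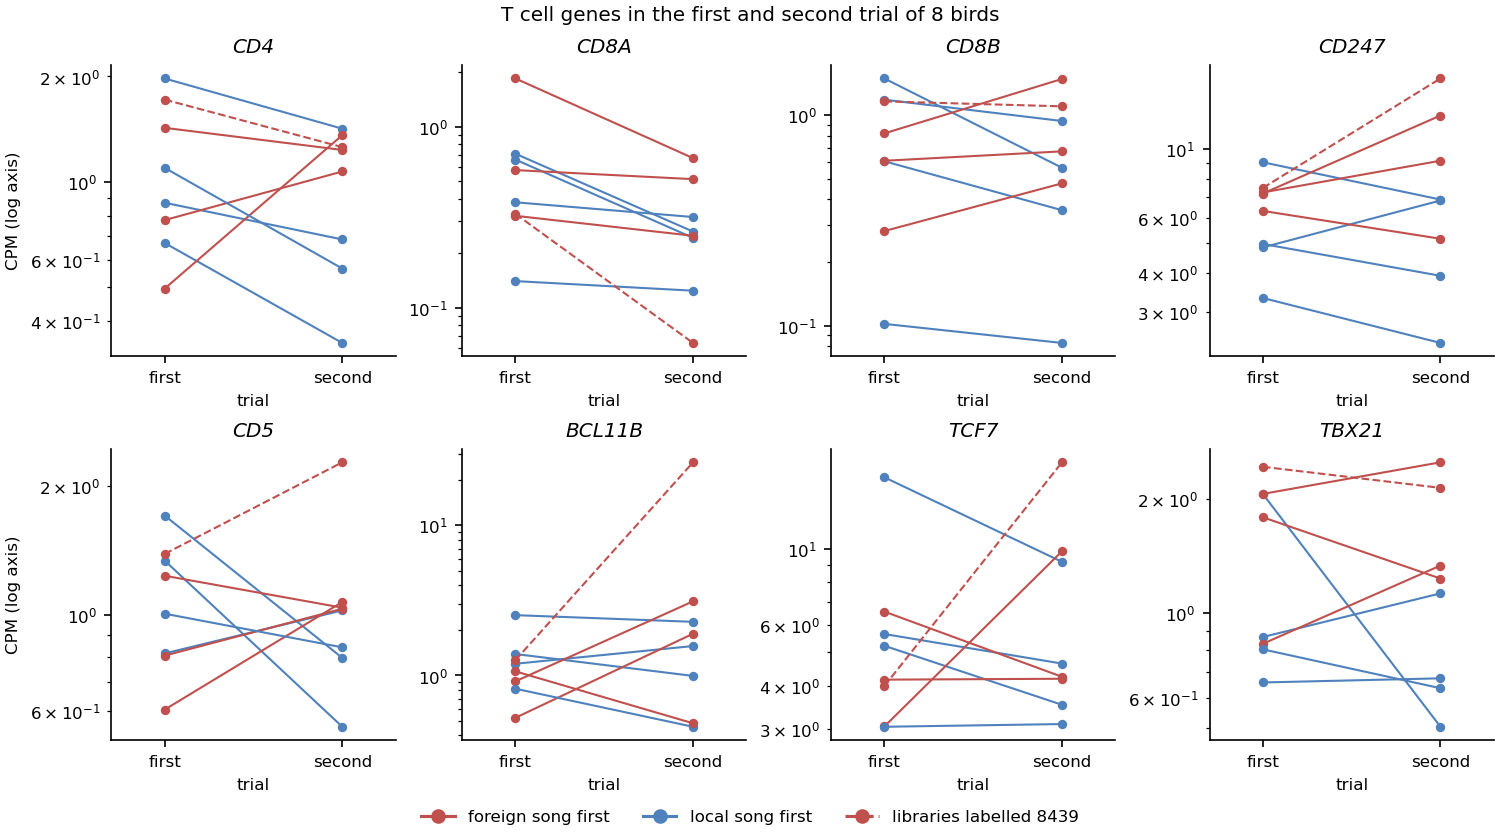
Level of each T cell gene (CPM, log axis) in the first and second trial of the 8 birds played both songs, 1 line per bird, red where foreign song came first and blue where local song came first. CD8A is lower in the second trial in all 8 birds, and the dashed line shows the libraries labelled 8439, with BCL11B at 1.27 and 26.3 CPM.

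Second trials were compared with first trials in the same fit, which addresses the order of capture apart from song. CD8A was lower in the second trial in 8 of 8 birds, with a median difference of −0.87 on the log2 scale and a fitted change of −0.91 ± 0.38. In birds that heard foreign song first, its first and second values were 1.84 and 0.670 CPM in 8428, 0.322 and 0.250 in 8429, 0.575 and 0.513 in 8436, and 0.330 and 0.0639 in 8439. Where local song came first, they were 0.657 and 0.243 CPM in 8422, 0.708 and 0.263 in 8426, 0.382 and 0.317 in 8427, and 0.140 and 0.124 in 8430. The direction was the same in both orders, and 4 of the 8 differences were under 0.4 on the log2 scale. First and second counts for those 4 were 30 and 25 in 8427, 24 and 20 in 8429, 11 and 9 in 8430, and 54 and 32 in 8436. In 8439 they were 19 and 9. Whether the direction in single birds exceeds counting error was not tested. Without 8439 the fitted change was −0.76 ± 0.36, the median difference was −0.35, and CD8A was lower in 7 of 7 birds.

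The CD8 beta chain did not follow. CD8B was lower in the second trial in 5 of 8 birds, with a fitted change of −0.12 ± 0.27. It was lower in 4 of 4 birds that heard local song first and higher in 3 of 4 that heard foreign song first. The other members had fitted changes between −0.16 ± 0.29 (TBX21) and 0.81 ± 0.47 (BCL11B, 0.35 ± 0.34 without 8439). Again 0 of 8 members passed, as did 0% of all genes. CD8A had an unadjusted p of 0.0318 and an adjusted p of 0.633 by edgeR's quasi-likelihood test, and it was the single member of 8 under an unadjusted p of 0.05, beside 5.73% of all genes (666). Without 8439 the count was 0 of 8 (4.43% of all genes, 515). DESeq2 called 6 genes and no member. With no replicate block BCL11B was at 1.56. Of the other cell types, 8 of 8 monocyte markers were higher in second trials (6 of 8 without 8439). So were 10 of 12 thrombocyte markers (9 of 12 without 8439) and 5 of 6 heterophil markers (4 of 6 without 8439). Of the B cell markers 7 of 11 were lower (8 of 11 without 8439), where 45.1% of all genes were lower. The part of these cells in the CD8A values was not tested.

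Each song was then compared with baseline birds, which describes how birds captured after a simulated intrusion differed from birds with no trial. Most baseline libraries were deposited in a different block from most song libraries, and a difference in handling was not tested. The 2 comparisons share the 10 baseline libraries, so they are not independent of each other. The fitted log2 difference of CD8A from baseline was −1.91 ± 0.75 after foreign song and −2.72 ± 0.74 after local song. It was −1.70 ± 0.66 and −1.81 ± 0.66 for CD8B, and −1.44 ± 0.52 and −1.65 ± 0.51 for TBX21. The baseline library of 8448 held 19.2, 19.3 and 22.1 CPM of these 3 genes. Without 8448 the CD8A differences were −0.17 ± 0.54 and −1.04 ± 0.50, those of CD8B −0.27 ± 0.48 and −0.44 ± 0.46, and those of TBX21 −0.46 ± 0.38 and −0.72 ± 0.35.

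CD4 depended less on that library. It averaged 2.03 ± 1.46 CPM at baseline (SD, n = 10), 1.02 ± 0.43 after foreign song (n = 12) and 1.09 ± 0.45 after local song (n = 11). The fitted differences from baseline were −1.04 ± 0.35 and −0.87 ± 0.36, and without 8448 they were −0.75 ± 0.33 and −0.60 ± 0.34. Without 8439, 8448 and 8450 they were −0.95 ± 0.32 and −0.74 ± 0.34. The last fit also leaves out the lowest baseline CD4 level, 0.580 CPM in 8450. The highest CD4 levels after playback were 1.72 CPM (foreign) and 1.97 (local), below the 3.24 CPM of the second-highest baseline bird. Both were above the baseline median of 1.57 CPM, and the ranges overlapped.

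The fitted differences of the shared genes were not all of 1 sign. CD247 differed from baseline by −0.94 ± 0.34 after foreign and −0.82 ± 0.39 after local song, and CD5 by −0.91 ± 0.34 and −0.69 ± 0.35. Without 8448, the CD5 differences were −0.46 ± 0.27 and −0.25 ± 0.29. Without 8439, 8448 and 8450, those of CD247 were −0.42 ± 0.31 and −0.56 ± 0.34. TCF7 differed by −0.17 ± 0.28 (−0.0528 without 8447) and 0.40 ± 0.35 (0.15 ± 0.32 without 8439). BCL11B differed by −0.94 ± 0.49 after foreign song and 0.48 ± 0.73 after local song. Without 8450 the former was −0.36, without 8439 the latter was −0.77 ± 0.56, and without 8439, 8448 and 8450 the 2 values were 0.14 ± 0.41 and 0.26 ± 0.47.

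Against baseline, again 0 of 8 members passed the threshold in either comparison, where 0% of 11817 genes passed for foreign song and 0.00847% of 11800 (the gene ENTPD1 alone) for local song. The lowest adjusted p of a member by edgeR's quasi-likelihood test was 0.515, for CD8A after local song. At an unadjusted p under 0.05, 6 of 8 members were lower after foreign song (7.13% of all genes, 842, passed in either direction) and 5 of 8 after local song (5.95%, 702). Without 8448, the counts were 2 of 8 (CD4 and CD247; 5.04% of all genes, 598) and 1 of 8 (CD8A; 5.23%, 620). Without 8439, 8448 and 8450, CD4 alone was under that p after foreign song (10.2% of all genes, 1214). After local song CD4, CD8A (−1.06 ± 0.42) and TBX21 (−0.94 ± 0.34) were under it there (9.27%, 1093). DESeq2 called 1 and 18 genes, and no member. With its default replacement of outlying counts, DESeq2 put the 2 differences from baseline at −0.13 and −0.99 for CD8A, −0.24 and −0.43 for CD8B, and −0.42 and −0.70 for TBX21, near the values without 8448. With no replacement they were −1.87 and −2.74, −1.67 and −1.86, and −1.41 and −1.70, and DESeq2 gave these no p.

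In first trials alone, foreign song libraries (8 birds) were compared with local song libraries (7 other birds). CD8A was 1.23 ± 0.56 log2 units higher after foreign song, TBX21 1.02 ± 0.37 and CD247 0.66 ± 0.26. Without 8425 the CD8A difference was 0.77. CD8B was at 0.63 ± 0.62, and at 0.15 without 8425, while CD4 (0.16 ± 0.36), CD5 (0.10 ± 0.33) and BCL11B (0.00 ± 0.60) were near 0 and TCF7 was at −0.32 ± 0.36 (0.0254 without 8422). The ranges of all 8 genes overlapped between the songs. The adjusted p was 1 for each of the 8 members by edgeR's quasi-likelihood test. The count called was 0 of 8, and 0% of 11841 genes, and 3 of 8 members were under an unadjusted p of 0.05 (3.5% of all genes, 414). DESeq2 called 8 genes and no member. This comparison shares 8 of its libraries with the comparison within birds, and the difference between their values was not tested.

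**Figure D4:**
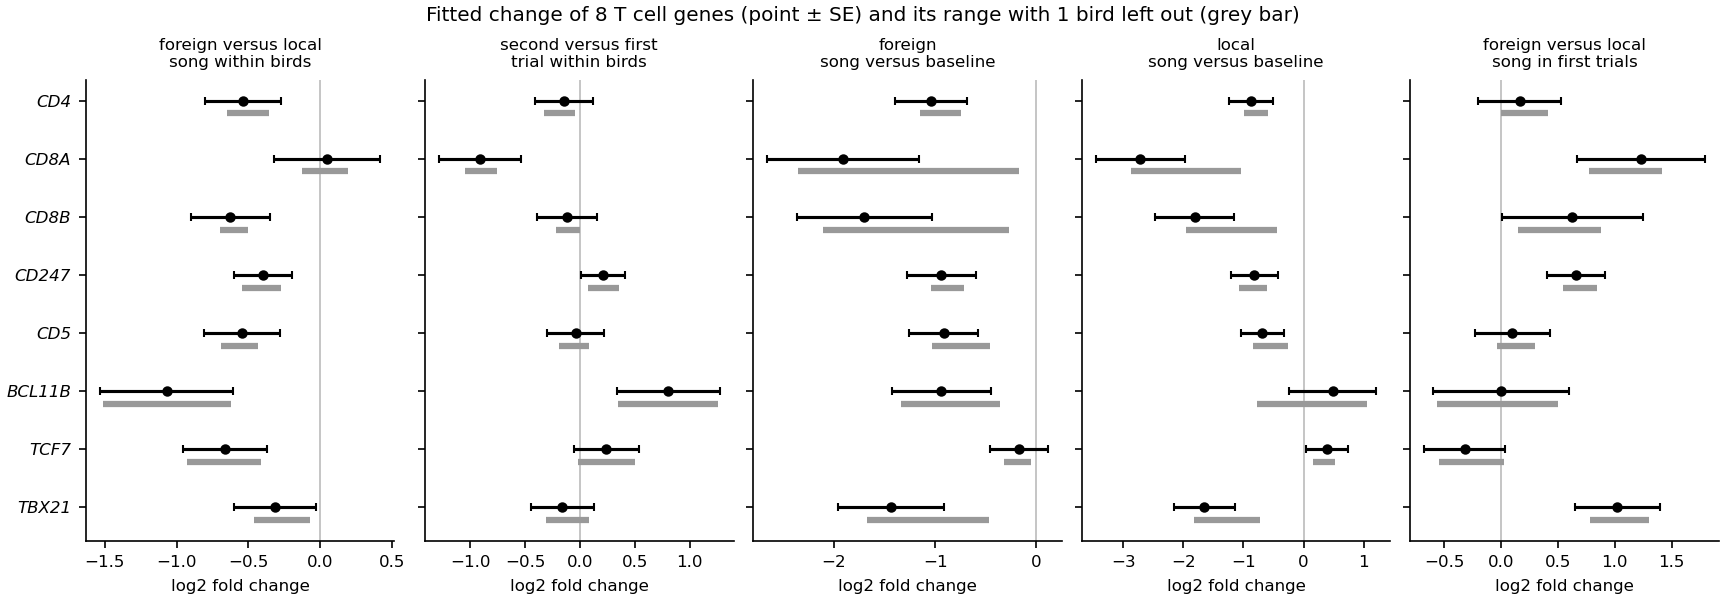
Fitted log2 fold change of each T cell gene in the 5 comparisons (point, with SE bars), and below it in grey the range when 1 bird at a time is left out. The horizontal scale differs between panels, and the grey bars of CD8A, CD8B and TBX21 against baseline reach nearest to 0 at the values without 8448, which for CD8A were −0.17 after foreign and −1.04 after local song.

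The wider T cell programme was read from 5 lists with 95 genes in all (T cell receptor complex and signalling, co-stimulatory and inhibitory receptors, T lineage transcription factors, cytokine receptors and homing, and cytotoxic effectors), of which 61 had a row. None of the tested genes passed in any of the 5 comparisons. After foreign song within birds, 47 of 54 tested genes were lower (median −0.33), against 50.9% of all genes (median −0.01). The genes of smallest p were ETS1, a lymphocyte transcription factor (−0.65 ± 0.21), RASGRP1, which links the T cell receptor to Ras (−0.50 ± 0.18), and BATF, an AP-1 family factor (−0.80 ± 0.32), and LCK was at −0.60 ± 0.30 (−0.35 ± 0.23 without 8439). Without 8439, 41 of 54 were lower (median −0.20).

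Markers of other white cells lay on the same side. Of the markers tested, 10 of 11 B cell, 8 of 8 monocyte and 5 of 6 heterophil genes were lower after foreign song within birds, with medians of −0.39, −0.74 and −0.53, while 9 of 10 erythroid genes were higher (median 0.14). Without 8439 the medians were −0.26 for B cell, −0.61 for monocyte and −0.30 for heterophil genes. The monocyte sum ranged from 21.9 to 185.9 CPM over the 12 foreign song libraries and from 37.6 to 175.4 over the 11 local song libraries, and the B cell sum from 24.9 to 71.2 and from 13.7 to 72.7. The erythroid sum ranged from 11370 to 22050 CPM and from 8560 to 21200. No listed marker present in the files was at 0 in all libraries. The part of these cells in the T cell values was not tested.

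Between second and first trials the T cell lists were evenly split, with 27 of 54 genes lower (median 0.01, against 45.1% of all genes), so the lower CD8A in second trials was not shared by most of them. IL2RB was at −0.40 ± 0.29 and FYB1, an adaptor of the T cell receptor, at 0.47 ± 0.24 (0.20 ± 0.13 without 8439). Against baseline, 49 of 56 genes were lower after foreign song (median −0.43, against 57.6% of all genes) and 41 of 56 after local song (median −0.24, against 50.1%). Without 8448 these counts were 37 and 26 of 56, with medians of −0.17 and 0.03, against 54.6% and 48% of all genes. Without 8439, 45 of 55 were lower after local song (median −0.39, against 54.5% of all genes). Of the heterophil markers, 6 of 6 and 5 of 6 were lower than baseline (5 of 6 and 3 of 6 without 8448). Of the monocyte markers, 7 of 8 were lower after foreign song but 7 of 8 were higher after local song. Without 8448 these were 7 of 8 lower and 8 of 8 higher. Of the thrombocyte markers 8 of 11 and 6 of 11 were lower (8 of 11 and 5 of 11 without 8448). Of the B cell markers 7 of 11 and 8 of 12 were lower. Without 8448 only 4 of 11 and 5 of 12 B cell markers were lower, with medians of 0.11 and 0.09. The part of these cells was not tested. FASLG, the death ligand of cytotoxic cells, was at −1.73 ± 0.54 and −1.49 ± 0.53 against baseline (−0.897 ± 0.45 and −0.69 ± 0.43 without 8448), and its level in 8448 was 5.87 CPM against a median of 0.372 over the other libraries. CD40LG, the helper cell ligand of B cells, was at −0.996 ± 0.43 and −1.26 ± 0.42 (−0.44 ± 0.36 and −0.73 ± 0.35 without 8448). In first trials, 37 of 56 genes were higher after foreign song (median 0.17) and 51.1% of all genes were lower (median −0.01). The higher T cell genes included EOMES, a T-box factor related to T-bet (1.56 ± 0.47), and IL2RB (0.78 ± 0.36). The B cell list was higher in 10 of 11 genes there and the monocyte list lower in 9 of 9, and the erythroid list lower in 10 of 10 (median −0.26), and their part was not tested.

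Whether a bird kept its level was examined in the 8 birds with 2 libraries. Pearson's r between the first and second library (log2 CPM, two-sided exact permutation test over all pairings of the 8 birds) was 0.822 for CD8B (p = 0.019), 0.765 for CD247 (p = 0.0267) and 0.72 for CD8A (p = 0.0467). Spearman's rho was 0.643 (p = 0.0962), 0.762 (p = 0.0368) and 0.643 (p = 0.0962) in the exact permutation test. Adjusted over the 8 members, none passed (adjusted p = 0.107, 0.107 and 0.125 for r, exact permutation test). Without the 2 birds farthest from the median, r was 0.294, 0.58 and 0.476, so these relations rest in part on the birds left out. The r was 0.455 for TBX21, 0.378 for CD4, 0.179 for BCL11B, 0.11 for TCF7 and −0.07 for CD5 (adjusted p from 0.507 to 0.883, exact permutation test).

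Across birds, the CD8 chains and TBX21 went together in level, and CD5 went with CD4 and with TCF7. CD5 also went with the CD8 chains and TBX21, less closely by rho. Over 25 birds with 1 library each, log2 CPM of CD8A and TBX21 had r = 0.856 and rho = 0.813, CD8A and CD8B r = 0.786 and rho = 0.753, and CD8B and TBX21 r = 0.782 and rho = 0.685. Without 8448 the 3 values of r were 0.751, 0.661 and 0.645. CD4 and CD5 had r = 0.74 and rho = 0.632, CD5 and TCF7 r = 0.682 and rho = 0.777, and BCL11B and TCF7 r = 0.598 and rho = 0.785. Without 8448 these were r = 0.642, 0.724 and 0.571. CD5 had r = 0.667 and rho = 0.434 with TBX21, 0.654 and 0.449 with CD8A, and 0.638 and 0.43 with CD8B. CD4 and TBX21 had r = 0.625 and rho = 0.497, and CD5 and BCL11B r = 0.544 and rho = 0.673. Without 8448 the r of these pairs was 0.412, 0.417, 0.42, 0.465 and 0.468. By contrast CD4 and TCF7 had r = 0.344 and rho = 0.415 (adjusted permutation p = 0.118 and 0.0774), TCF7 and TBX21 r = 0.127, BCL11B and TBX21 0.248, CD4 and BCL11B 0.142, and CD8A and BCL11B 0.188.

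All 28 pairs had a positive r, and 17 passed an adjusted p of 0.05 over the 28 pairs by r and 8 by rho (two-sided permutation test, 100000 resamples). Without 8448 the counts were 8 by r and 7 by rho, and without 8448 and 8450 they were 10 and 7. No share of other gene pairs was set beside these counts, and the 25 birds mixed baseline, foreign song and local song. The adjusted permutation p was 0.00014 for CD8A and TBX21 by r and by rho, which rests on the smallest p these resamples can give (1e-05), and 0.00021 and 0.00028 for CD8A and CD8B. Leaving out the 2 birds farthest from the median of the first-named gene gave r = 0.739 for CD8A and TBX21, 0.731 for CD8A and CD8B, 0.628 for CD8B and TBX21, 0.569 for CD4 and CD5, 0.701 for CD5 and TCF7 and 0.722 for BCL11B and TCF7. All libraries share the assay and may differ in the cell makeup of the blood, which was not measured. These values describe levels in blood and not in single cells.

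**Figure D5:**
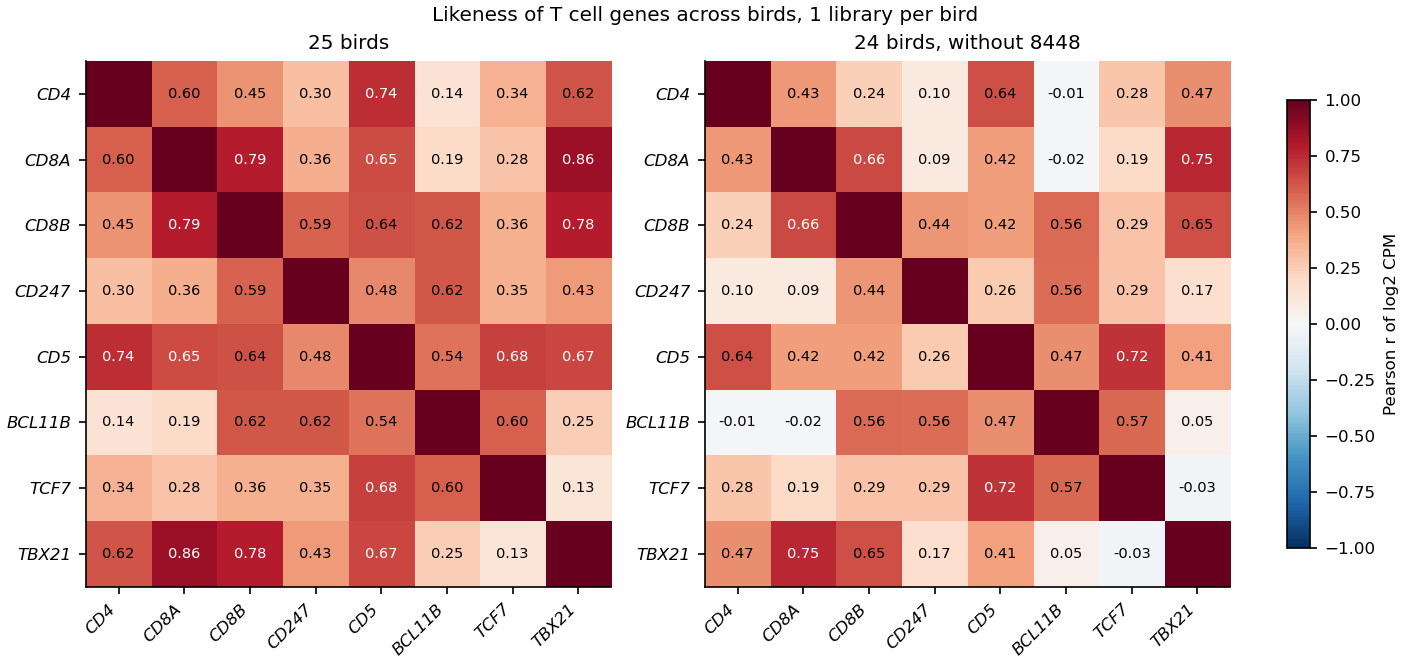
Pearson's r of log2 CPM for each pair of T cell genes over 25 birds with 1 library each (left) and over 24 birds without 8448 (right), on a scale from −1 to 1. CD8A, CD8B and TBX21 form a block of high values in both panels, with r of 0.86 for CD8A and TBX21 on the left and 0.75 on the right.

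The ratio of the CD8 chains was lowest in the local song library of 8439 and in 8450. The log2 ratio of CD8A to CD8B had a median of −0.40 over 33 libraries, was −4.11 in the local song library of 8439 and −3.32 in 8450, and the next lowest was −2.96 in 8432 (local song). In baseline birds other than 8450 it lay between −0.62 and 0.12. The ratio of CD4 to the mean of the CD8 chains ranged from −1.88 in 8448 to 3.18 in the local song library of 8430, with medians of 0.56 at baseline, 0.95 after foreign and 1.06 after local song, and the ranges overlapped. TBX21 relative to TCF7 had medians of −1.33 at baseline, −1.96 after foreign and −2.71 after local song, with overlapping ranges. A ratio of 2 genes shows unequal levels between libraries and says nothing of which gene moved.

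The genes most like each member over the 25 birds, among 7223 genes with a symbol and an average log2 CPM of at least 0, were named by r. For CD8A they were IL2RB (r = 0.921, 0.866 without 8448), ARHGEF3 (0.886), CBX7, a Polycomb protein (0.876), and STAT4, a cytokine-activated transcription factor (0.873), with TBX21 in rank 5 (rank 13 without 8448). For CD8B they were ZBTB38 (0.905, 0.852 without 8448) and ZBTB1 (0.877), both zinc finger factors, INPP5F (0.874), SNTB1 (0.858) and KRIT1 (0.852). For TBX21 they were PARP1, a DNA repair enzyme (0.906, 0.865 without 8448), RRAS2 (0.89), MSN, which encodes moesin (0.885), TNFRSF21 (0.885) and KIAA0040 (0.879).

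For CD4 the nearest were GPR183, a receptor that guides lymphocyte migration (0.871, 0.839 without 8448), RPS6KA1 (0.865), S1PR4, a sphingosine phosphate receptor of lymphocytes (0.861), P2RY8 (0.854) and NUAK1 (0.839). For CD5 they were JAK3, the kinase of the common cytokine receptor chain (0.888), ETS1 (0.884), PIK3R5 (0.84), DOCK2, which drives lymphocyte migration (0.832), and ST8SIA1 (0.829). For TCF7 they were LCK (0.801, 0.832 without 8448), ADAM33 (0.775), MGAT3 (0.76), ZFP36L1 (0.717) and IL7R (0.716). BCL11B was nearest to UBASH3B, a phosphatase (0.836), CHD7, a chromatin remodeller (0.835), SLC9A9 (0.828), MAP7D3 (0.824) and KCNQ5 (0.815). CD247 had the lowest values of the 8, with LRR1 (0.771, 0.74 without 8448), SLC9A9 (0.695), IL20RA (0.688), SKAP1, an adaptor of the T cell receptor (0.681), and ARHGAP27 (0.668). Without 8448, DOCK2 and ST8SIA1 were in ranks 19 and 15 for CD5, and SKAP1 and ARHGAP27 in ranks 16 and 33 for CD247. These are descriptions over birds that include 8448 and 8450 and carry no test.

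By RefSeq's gene table (bMelMel2.pri), CD8A and CD8B lie next to each other, CD5 lies next to CD6, and CD4 lies between LAG3 and GPR162. No source used here gives the build or strand setting of the counting, so reads of overlapping neighbours cannot be told apart.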

How the data were processed

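Whole-blood RNA was measured by poly(A)-enriched paired-end sequencing in 33 libraries. The values deposited by the authors are raw gene counts, whole numbers without normalization, 1 file per library. The tools fastp and STAR are listed in the submitters' processing notes, and no source used here gives their versions, the counting program, strand setting or build. Groups, trials and bird numbers came from the labels, which give all libraries the same batch. Most baseline libraries were deposited in a different block from most song libraries, and a difference in handling between them was not tested. The libraries that stood apart all lay in the block that held most baseline libraries.

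Counts were analysed with edgeR 4.0.16 in R 4.3.3: filterByExpr (minimum count 10, minimum total 15), TMM scaling, robust quasi-likelihood tests, and Benjamini-Hochberg adjustment over all genes tested at 0.05. Filters kept all 8 members in all 5 comparisons. The SE was derived from the fold change and the F statistic of its test. Log2 CPM of single libraries used TMM scaling over the 33 libraries and a prior count of 1. Foreign against local song and second against first trial were fitted together in 16 libraries with the bird as a block. The bird numbers pair libraries of the same animal: own-pair correlations of deviations from group means were 0.325 to 0.629 in 7 birds, above those with any other bird, and −0.05 in 8439. Correlations used Python 3.11.15 and scipy 1.17.1. Alternatives were DESeq2 1.42.0 (with and without its replacement of outlying counts), its size factors, no filter, no replicate block, limma 3.58.1 (voom over 23 song libraries, bird random) and leaving out each bird. The fit was tested on simulated data with the same dispersion for all genes, no bird effect and no outlying library. That setting is unlike these counts, so it does not show how the fit behaves on them.

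The members and lists were chosen with earlier results of these data known. Named genes were the 8 members, the 3 genes of smallest p in each other T cell list (a selection is printed), and the 5 genes of highest r to each member. List counts and correlations without single libraries that stood apart, and values without 8439, 8448 and 8450 together, were chosen after seeing the data. Sequences were not used here.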

Additional observations from a re-analysis of the deposited data

Results flagged for a closer look

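Of 48 groups of 4 to 10 libraries tested for a single library far from the rest, 2 were picked out, where chance gives about 1 in 20. CD8B in baseline birds was highest in 8448, at 19.3 CPM against 2.87 CPM in the next bird, a gap of 0.482 of the group's range on the log2 scale (n = 10). CD5 in second trials with local song was highest in the library labelled 8439, at 2.27 CPM against 1.07 CPM in the next, a gap of 0.954 of the range on that scale (n = 4).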

How the results depend on the processing

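Over 192 values of the 8 genes under other scaling, filters, tests and blocks, or without the libraries of 8439, 8448 and 8450 together, 186 kept their direction, 6 reversed and 0 passed the threshold (lowest adjusted p by edgeR, DESeq2 or limma 0.330). Some of these values had no adjusted p and could not pass. They were CD8A, CD8B and TBX21 against baseline after both songs, and BCL11B after local song, in DESeq2 with no replacement of outlying counts. Those that reversed were BCL11B against baseline, at −0.78 after local song with DESeq2 and 0.14 after foreign song without the 3 libraries, TCF7 after foreign song without them (0.0070), and BCL11B in first trials (−0.003908 with DESeq2's size factors and −0.004745 with DESeq2, with or without replacement of outlying counts). Values that moved by over 1.5 times, reversed ones included, were 10 of 16 in limma-voom over 23 song libraries, 12 of 16 without the 3 libraries and 9 of 40 with DESeq2. DESeq2 called 4 genes for song and 6 for trial within birds, 1 for foreign and 18 for local song against baseline, and 8 in first trials (1, 14 and 7 in the last 3 comparisons with no replacement of outlying counts, an alternative chosen after seeing the data). The 1 gene called for local song against baseline became 0 with DESeq2's size factors, 0 with no filter, 2 without the 3 libraries and 0 to 2 with 1 bird left out, and first trials gave 0 to 1. With no replicate block the paired comparisons called 0 genes each, CD8B was at −0.65 for song and CD8A at −0.98 for trial, BCL11B was at −1.73 and 1.56, and the block changed no call. With 1 bird left out, 570 of 592 values kept their direction and 22 reversed, with none called (lowest adjusted p by edgeR 0.195). Ranges that crossed 0 were −0.13 to 0.19 for CD8A by song. By trial they were −0.22 to 0.0028 for CD8B, −0.19 to 0.086 for CD5, −0.0202 to 0.50 for TCF7 and −0.31 to 0.081 for TBX21. For BCL11B after local song the range was −0.77 to 1.06. In first trials the ranges were −0.0025 to 0.41 for CD4, −0.0377 to 0.30 for CD5, −0.56 to 0.50 for BCL11B and −0.54 to 0.0254 for TCF7. Repeatability ranged from −0.63 to 0.125 for CD5 and from −0.28 to 0.368 for TCF7. Without 8448, r was −0.0127 for CD4 and BCL11B, −0.0184 for CD8A and BCL11B and −0.03015 for TCF7 and TBX21, the last −0.0137 without 8450 too. The cause of these shifts was not tested. CD8A and CD8B counts under 20 in several libraries limit how small a difference could be detected in those birds.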
